A study of Homo sapiens with 9 samples.

Results

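The miR-181a transfection was compared with the negative control transfection, 1 array each, 2 of the 9 arrays of the series. KYSE30, an established cell line of human esophageal squamous cell carcinoma, received miR-181a or a negative control by lipid transfection, and RNA of both cultures was taken on day 3. The cells of both groups are the same line, grown in RPMI medium with fetal bovine serum and treated with the same Lipofectamine reagent, and no label gives the sequence of the negative control. The other 7 arrays hold miR-32, miR-455, miR-181b, an siRNA against PIK3R1, an siRNA against PIK3R3, a miRNA combination and an siRNA combination. Per the series title, the study asked what raising these microRNAs or knocking down PI3K does to expression.

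Each array measured 47317 probes by fluorescence intensity. A probe was compared where its detection p-value, its rank against the negative control probes of its array, was under 0.01 on at least 1 of the 2 arrays, and 15871 probes (33.5%) met this rule. With 1 array per group there is no replicate error and no test, every value is a size of difference between 2 cultures, and the cause of any difference was not tested. The files identify probes by number and do not pair them with genes, so every result concerns numbered probes. Markers of squamous epithelium and the genes known as targets of miR-181a were not analysed here for the same reason. The level of miR-181a itself was not analysed either.

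MicroRNAs are short RNAs that guide Argonaute proteins to messenger RNAs, mostly through pairing of the seed, bases 2 to 8 of the microRNA, with sites in the untranslated end of the message. Bound messages are translated less and degraded faster, usually by a modest amount each. The miR-181 family is known for setting T cell receptor sensitivity, where it lowers several phosphatases, and for roles in blood cell development, and it is altered in many carcinomas.

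The mature sequences are shown because the seed defines which messages a microRNA can pair with, and because miR-181b was transfected in the same series. Capitals mark the seed, the sequences run from the 5′ to the 3′ end, and they come from RefSeq on build GRCh38.p14. The labels do not say which arm was transfected. The 5p arm is the one usually meant by the bare name.
hsa-miR-181a-5p: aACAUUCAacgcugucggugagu
hsa-miR-181b-5p: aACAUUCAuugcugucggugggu
hsa-miR-181a-3p: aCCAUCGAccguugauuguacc
hsa-miR-181a-2-3p: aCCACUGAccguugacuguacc
The 5p arm of miR-181a is made from 2 genes, MIR181A1 at chr1:198859108-198859130 on the minus strand and MIR181A2 at chr9:124692480-124692502 on the plus strand. Beside each lies a gene for miR-181b, MIR181B1 at chr1:198858925-198858947 and MIR181B2 at chr9:124693725-124693747. The 5p arms of miR-181a and miR-181b have the same seed and are identical at 20 of 23 positions. Counted from the 5′ end, with the base of miR-181a first, they differ by A9U, C10U and A21G, all outside the seed. Of 2370 mature human microRNA names in the table, 5 carry this seed, namely miR-181a-5p, miR-181b-5p, miR-181c-5p, miR-181d-5p and miR-4262. Both 3p arms of miR-181a have other seeds, which also differ from each other.

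Few probes differed between the miR-181a and control arrays, and more of them were lower than higher in miR-181a. On the normalized log2 scale, 84 probes were at least 2-fold lower in miR-181a (0.529% of those compared) and 45 were at least 2-fold higher (0.284%). The median size was 2.24-fold among the lower and 2.19-fold among the higher probes, so most calls lay near the threshold. At least 4-fold, 2 probes were lower (0.0126%) and 3 higher (0.0189%), and at least 1.5-fold, 629 were lower (3.96%) and 541 higher (3.41%). Higher probes were thus 34.9% of the 2-fold calls, and 46.3% of them in the authors' processed values. Without background correction 27 probes were lower and 11 higher, and in the authors' processed values 122 and 105.

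The bulk of the differences was narrow and centred near 0. The median difference was 0.01, the SD across probes 0.33, and the percentiles 1 and 99 were -0.87 and 0.78. The 2-fold line cuts through a continuous range and does not separate 2 kinds of probe. Within 0.1 of it, 26 lower probes lay inside and 49 outside, and 18 higher probes lay inside and 28 outside. The closest probes differed by -1.0009 inside and -0.9995 outside among the lower, and by 1.0005 and 0.9989 among the higher.

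Both the share of 2-fold calls and the spread were smallest in the brightest class. Among 5290 probes with a mean log2 level under 7, 25 were 2-fold lower and 21 higher, and among 2914 at 7 to 8, 25 were lower and 14 higher. Among 2642 probes at 8 to 9, 19 were lower and 4 higher, and among 3462 at 9 to 11, 14 were lower and 4 higher. Among the 1563 brightest, at 11 and above, 1 was lower and 2 were higher. Lower calls thus outnumbered higher ones mainly between 7 and 11, while the dimmest class was near even. From the dimmest class to the brightest, the shares called either way were 0.87%, 1.34%, 0.871%, 0.52% and 0.192%, against 0.813% of all compared. The SD was 0.33 under 7, 0.37 at 7 to 8, 0.34 at 8 to 9, 0.32 at 9 to 11 and 0.25 in the brightest class. In differences, set medians and positions, lower values of undetected probes were raised to the lowest detected value of their array. The part of this step in the spread of the dim classes was not tested.

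**Figure D1:**
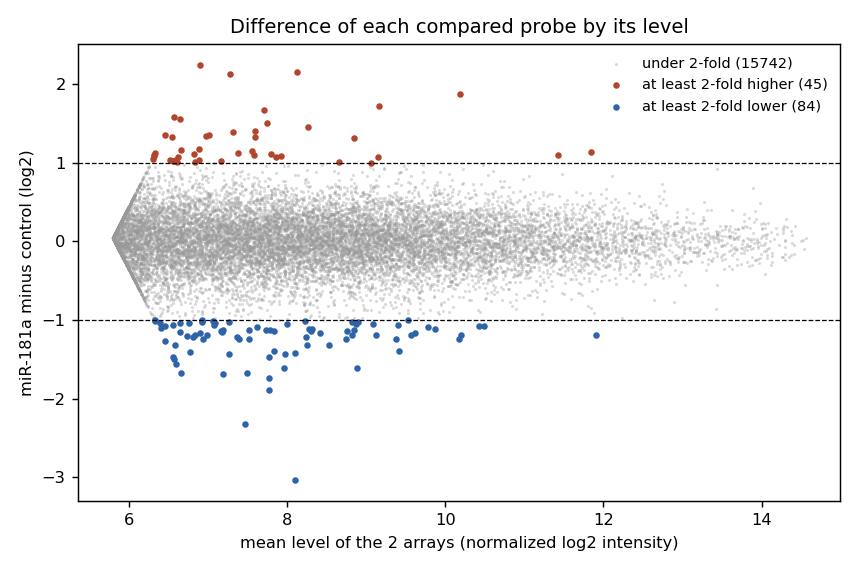
Each point is 1 of the 15871 compared probes, with its mean normalized log2 intensity on the 2 arrays across and the difference of miR-181a from the control upward; dashed lines mark 2-fold. The 84 lower probes reach -3.03 and the 45 higher probes reach 2.25, and between levels 8 and 11 lower calls outnumber higher ones.

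The 2 lowest probes detected on both arrays were ILMN_1739441 and ILMN_3241554, and the 2 highest were ILMN_1744381 and ILMN_1782716. They are the ends of the ranking, so their differences describe them and support nothing further. All 4 had a detection p of 0 on both arrays. Their levels below are given as normalized, and where an array did not detect the probe its own value is printed and was not raised.

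ILMN_1739441 gave a raw signal of 173 in miR-181a and 911 in the control. Its normalized log2 level was 6.58 in miR-181a, 9.61 in the control, 8.60 in miR-181b, 7.60 in miR-455, 8.77 in miR-32, 7.65 in siPIK3R1, 8.13 in siPIK3R3, 7.75 in the miRNA combination and 7.72 in the siRNA combination. The control was the highest of the 9 arrays and miR-181a the lowest, with a gap of 1.02 to the next array, miR-455. The difference of -3.03, or 8.19-fold, thus spans the whole range of the series for this probe, and it was -1.36 against the median of the 8 other arrays.

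ILMN_3241554 gave a raw signal of 155 in miR-181a and 493 in the control. Its log2 level was 6.30 in miR-181a, 8.62 in the control, 6.39 in miR-181b, 6.70 in miR-455, 7.05 in miR-32, 8.10 in siPIK3R1, 5.57 in siPIK3R3, 5.88 in the miRNA combination and 5.87 in the siRNA combination. It was not detected at the threshold in siPIK3R3, whose 5.57 lies under the lowest detected value of that array, 5.87. Here the control stood highest, while miR-181a lay among the other low arrays, and its difference of -2.32 from the control was -0.24 from the median of the 8 other arrays.

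ILMN_1744381 gave a raw signal of 747 in miR-181a and 210 in the control. Its log2 level was 9.20 in miR-181a, 7.05 in the control, 10.36 in miR-181b, 8.94 in miR-455, 8.97 in miR-32, 8.18 in siPIK3R1, 10.93 in siPIK3R3, 9.58 in the miRNA combination and 11.79 in the siRNA combination. The control was the lowest of the 9, and miR-181a lay in the middle of the others. Its difference was 2.15 from the control, or 4.45-fold, and -0.076 from the median of the 8 other arrays, so that the direction turned with the reference.

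ILMN_1782716 gave a raw signal of 443 in miR-181a and 146 in the control. Its log2 level was 8.35 in miR-181a, 6.22 in the control, 8.15 in miR-181b, 7.66 in miR-455, 7.36 in miR-32, 4.84 in siPIK3R1, 7.10 in siPIK3R3, 9.31 in the miRNA combination and 7.57 in the siRNA combination. It was not detected in siPIK3R1, whose 4.84 lies under the lowest detected value of that array, 5.91. Only the miRNA combination was higher than miR-181a, whose difference of 2.13 from the control was 0.88 from the median of the 8 other arrays.

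**Figure D2:**
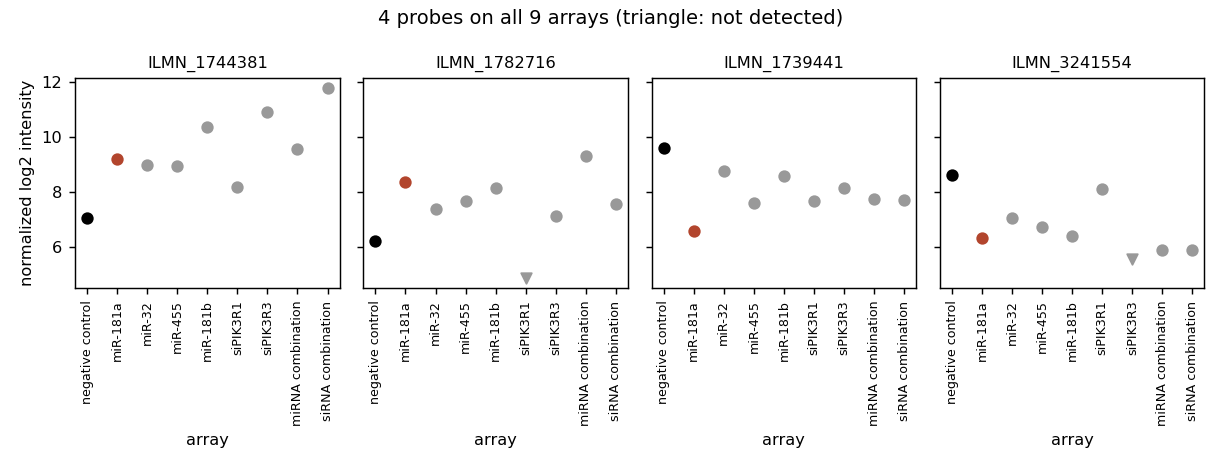
Normalized log2 intensity of the 2 highest and the 2 lowest probes on each of the 9 arrays, with the control in black, miR-181a in red, the other arrays in grey and undetected values as triangles. For ILMN_1739441 miR-181a is the lowest array at 6.58, whereas for ILMN_1744381 it lies at 9.20 among arrays from 7.05 to 11.79.

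The 12 probes at each end of the ranking of those detected on both arrays, which include the 4 above, showed the same mixture. Among these 12 lowest probes, raw signals ran from 155 to 380 in miR-181a and from 339 to 957 in the control, and the twelfth differed by -1.42. Of these 12, miR-181a was the lowest of all 9 arrays in 7 and the control the highest in 7, against 9.6% and 11% of all compared probes. Among these 12 highest probes, raw signals ran from 265 to 2599 in miR-181a and from 128 to 725 in the control, and the twelfth differed by 1.35. Of these, miR-181a was the highest array in 3 and the control the lowest in 5, against 14.4% and 7.43% of all compared. Taking the ends of the ranking raises such counts, so they are a description.

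The same question, which of the 2 arrays lies apart, was put to all called probes. Of the 84 lower probes, miR-181a was the lowest of the 9 arrays in 46 (54.8%), against 9.6% of all compared probes, and the control was the highest in 36 (42.9%), against 11% of all compared. Both held in 9, against 0.359% of all compared, and neither in 11 (13.1%), against 79.8%. Of the 45 higher probes, miR-181a was the highest array in 16 (35.6%), against 14.4%, and the control the lowest in 21 (46.7%), against 7.43%. Both held in 6, against 0.504%, and neither in 14 (31.1%), against 78.7%. The choice of probes that differ between these 2 arrays raises the shares at an end and lowers those at neither, so all are a description. Called probes of either kind, with miR-181a apart or with the control apart, are present.

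The levels on the 7 remaining arrays took no part in the choice. Among the 84 lower probes the median log2 level was 6.93 in miR-181a and 8.37 in the control. On the 7 others it was 7.66 in miR-181b, 7.47 in miR-455, 7.60 in miR-32, 8.47 in siPIK3R1, 7.65 in siPIK3R3, 7.88 in the miRNA combination and 7.86 in the siRNA combination. All 7 medians thus lay above miR-181a, and all but siPIK3R1 lay below the control, an order that the choice of probes favours. Per probe, the median of the 7 was nearer to the control in 41 of 84 (48.8%), close to the 51.9% of all compared probes, which is no result about the lower probes. In these 41 the median level was 7.16 in miR-181a, 8.54 in the control and 8.53 for the median of the 7. In the other 43 it was 6.82, 8.33 and 6.98. The split itself sets which array lies nearer to the 7, so these levels show sizes only.

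Among the 45 higher probes the median log2 level was 7.94 in miR-181a and 6.37 in the control. It was 7.54 in miR-181b, 7.71 in miR-455, 7.46 in miR-32, 6.87 in siPIK3R1, 7.70 in siPIK3R3, 7.68 in the miRNA combination and 7.70 in the siRNA combination. All 7 medians lay between the 2 arrays compared, an order that the choice of probes favours. The median of the 7 was nearer to the control in 15 of 45 (33.3%) and nearer to miR-181a in 30, where the median levels were 8.02 in miR-181a, 6.48 in the control and 7.74 for the 7. As above, the split fixes that order. The share nearer to the control among all compared probes was 51.9%.

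**Figure D3:**
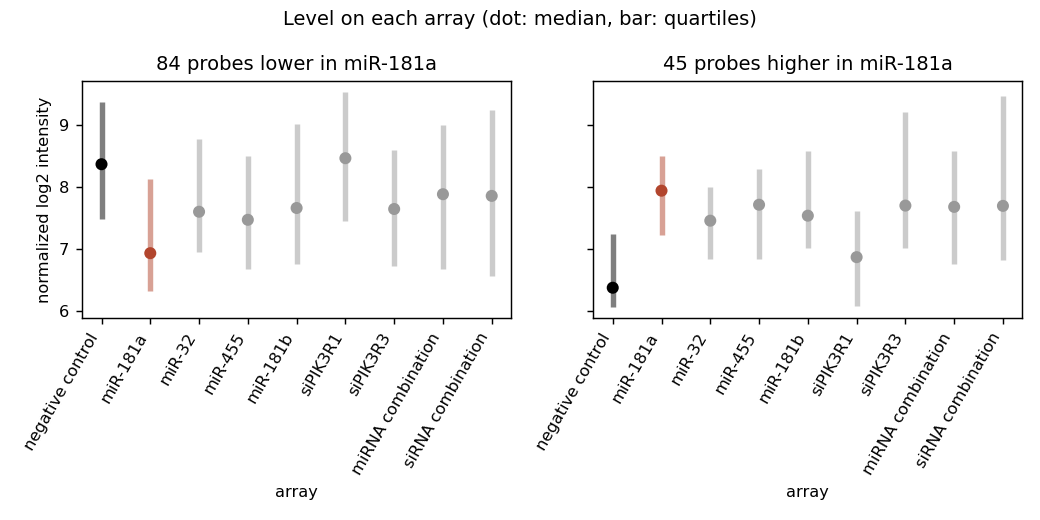
Normalized log2 intensity on each array of the 84 probes lower and the 45 probes higher in miR-181a, with dots for medians and bars from the lower to the upper quartile. In the lower set miR-181a has the lowest median at 6.93, and in the higher set the control has the lowest at 6.37. The choice of probes favours both places.

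Probes on which miR-181a lay beyond every other array do not depend on the control alone. Of 19006 probes detected on any of the 9 arrays, miR-181a was at least 1.5-fold below all 8 others on 29 (0.153%) and at least 1.5-fold above all 8 on 4 (0.021%). The control lay below all others on 12 and above all on 24, and miR-181b on 12 and 16. The siPIK3R3 array lay below on 114 and above on 216. The miR-32 array lay below all others on 3 probes and above on 0, and miR-455 on 0 and 0; these 2 arrays are close to each other, with 7 probes 2-fold apart. In this normalization miR-181a and miR-32 were the arrays with more probes below than above. For miR-181a the counts were 37 below and 9 above in the authors' processed values and 10 and 1 without background correction.

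**Figure D4:**
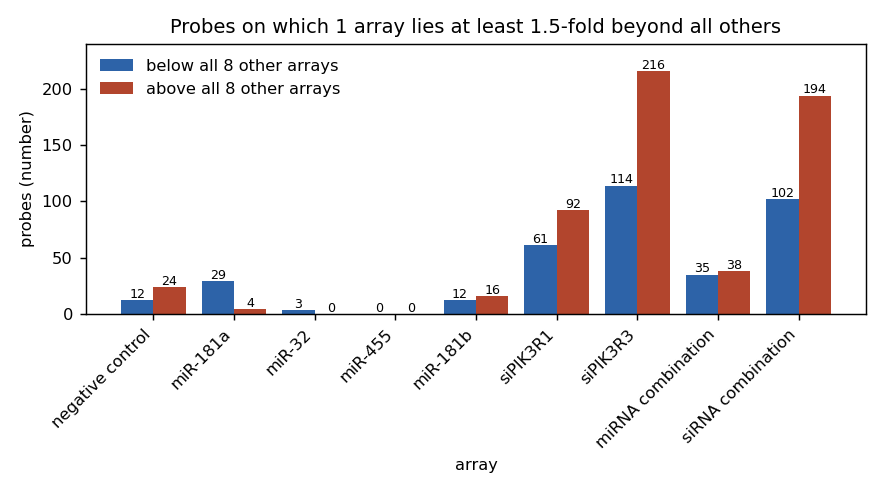
Number of probes, of 19006 detected on any array, on which the array named below lies at least 1.5-fold below (blue) or above (red) all 8 others. The miR-181a array has 29 below and 4 above.

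Of the 84 lower probes, 12 were also at least 1.5-fold below all 8 other arrays, against 0.183% of all compared, and all 12 were detected on both the miR-181a and control arrays. Their median log2 level was 7.54 in miR-181a and 9.05 in the control, 8.35 in miR-455, 8.65 in miR-32, 8.74 in the miRNA combination, 8.78 in miR-181b, 9.04 in siPIK3R3, 9.29 in siPIK3R1 and 9.43 in the siRNA combination. They were chosen for this arrangement, so the place of miR-181a is no finding. The choice of lower probes also raises their share above that of all compared, so the share is a description. The levels of the other arrays varied between them. In 5 of the 12 the control was the next lowest array, and in 5 it was miR-455. One probe with the control next stood at 9.32 in miR-181a and 10.43 in the control, and between 11.87 and 13.49 on the 7 others. One with miR-455 next stood at 7.59 in miR-181a, 8.91 in the control and 8.20 to 8.60 on the 7 others. The former was low on both arrays compared, with miR-181a the lower, whereas in the latter the control was the highest array. The widest gap to the next array was 1.19, in a probe at 9.60 in miR-181a, 10.79 in the control and 10.93 to 11.69 on the others.

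Of the 45 higher probes, 2 were also at least 1.5-fold above all 8 other arrays, against 0.0252% of all compared. The first stood at 9.69 in miR-181a, 8.62 in the control and 7.57 to 8.91 on the 7 others, and the second at 7.68, 6.33 and 5.91 to 7.02, with undetected values raised. The control lay apart from all 8 other arrays by as much on more of the higher probes and on fewer of the lower ones. It was at least 1.5-fold below all others on 6 of the 45 (13.3%), against 0.0756% of all compared, and above all on 8 of the 84 (9.52%), against 0.151%. The choice of probes that differ between miR-181a and the control raises each of these shares, so they too are a description.

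Probes detected on 1 array alone were a small part of those compared and gave a small part of the calls. Detection on 1 array alone favours a difference toward that array, so the shares below are a description. Of the compared probes, 14020 were detected on both arrays, 772 in miR-181a alone and 1079 in the control alone. In the first group 7 of the 772 were at least 2-fold higher, a larger share than the 0.284% of all compared. In the second 7 of the 1079 were at least 2-fold lower, a larger share than the 0.529% of all compared. The widest were at least 4.75-fold higher and at least 3.18-fold lower. These folds are lower bounds, because the undetected array enters at its lowest detected value or its own. The groups hold mostly probes near the limit: on the other array, 447 of the 772 and 653 of the 1079 had a detection p under 0.05. Just inside the threshold lay 92 probes with a smallest p of 0.00909, and just outside 136 with 0.0104, at median raw signals of 113 and 115 in miR-181a and 124 and 123 in the control.

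Set against the other arrays, in this normalization miR-181a had its fewest 2-fold differences from miR-455, miR-32 and the control, and their order turned with the scaling. It differed 2-fold from miR-455 at 88 probes (0.555% of 15867) and from miR-32 at 90 (0.553% of 16262), against 129 (0.813%) from the control. Without background correction the totals were 59 from miR-455, 64 from miR-32 and 38 from the control, and with an offset of 50 they were 69, 74 and 62. Under median scaling they were 121, 155 and 134, and in the authors' processed values 117, 156 and 227, so these counts do not settle which array was closest. In this normalization the differences were one-sided. In miR-181a 84 probes were lower and 4 higher than in miR-455, and 81 lower and 9 higher than in miR-32. In the authors' processed values 105 were lower and 12 higher than in miR-455, but 110 lower and 46 higher than in miR-32. The 81 probes below miR-32 were also low in the control, with median log2 levels of 7.15 in miR-181a, 7.82 in the control and 9.08 in miR-32. The other transfections ran from 9.09 in miR-455 to 11.29 in the siRNA combination on these 81 probes. For the 84 below miR-455 the medians were 7.06 in miR-181a, 7.31 in the control, 8.98 in miR-455 and 8.94 to 11.40 on the rest. On both sets the control was the second lowest array by median.

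Against miR-181b, whose 5p arm has the same seed, miR-181a differed 2-fold at 813 probes (5.17% of 15738), 497 lower and 316 higher. The counts were 825 (5.25%) against siPIK3R3, 1604 (10.1%) against siPIK3R1, 1755 (10.7%) against the miRNA combination and 2423 (15%) against the siRNA combination. The SD of the differences ran from 0.26 against miR-455 to 0.77 against the siRNA combination, with 0.53 against miR-181b.

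**Figure D5:**
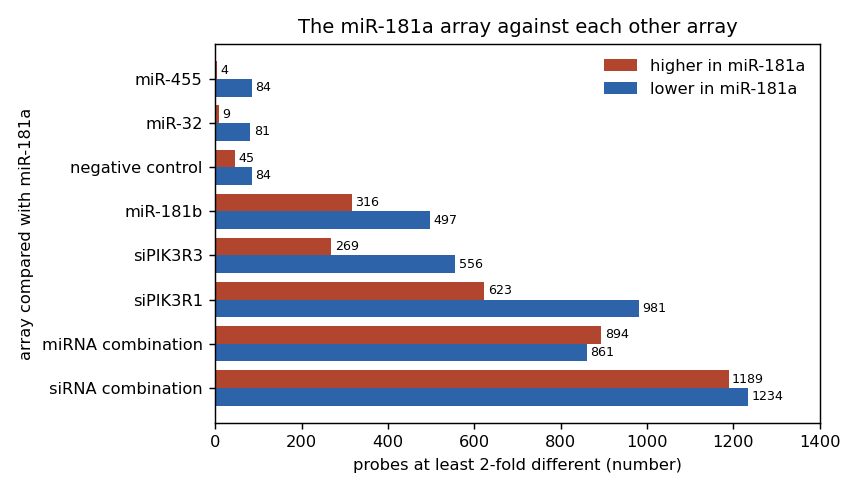
Number of probes at least 2-fold higher (red) or lower (blue) in miR-181a than on each of the 8 other arrays, ordered by total. The bars run from 4 higher and 84 lower against miR-455 to 1189 higher and 1234 lower against the siRNA combination, with 45 and 84 against the control.

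Technical values of the 2 arrays were close. The mean raw signal was 418 in miR-181a and 406 in the control, against 223 to 468 over the 9 arrays, and 14792 and 15099 probes were detected. Raw signals near the background, at detection p-values of 0.4 to 0.6, had a median of 84.9 in miR-181a and 84.5 in the control. The 2 arrays furthest from miR-181a by count were the dimmest, the combinations at 270 and 223, and the part of brightness in those counts was not tested. Because each group is 1 array, the culture, the array and the transfection cannot be told apart.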

How the data were processed

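The deposited raw table gives a linear signal intensity and, per the file headers, a detection p-value for each of 47317 probes on 9 arrays. Trizol RNA was turned into biotin-labeled cRNA for Illumina arrays, per the labels' protocols; no label names the scanner software or array version. A second table deposited by the authors holds processed intensity values on a linear scale with an equal mean on every array and some negative values. No header or label says how it was made. For every count in the authors' processed values, those under 16 were raised to 16 before log2 was taken.

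Each array was assigned by its label. The neqc function of limma 3.58.1, run in R 4.3.3 on all 9 arrays together, corrected the background from the detection p-values, added an offset of 16, quantile normalized and took log2; other steps used Python 3.11.15, numpy 2.4.6 and pandas 2.3.3. For differences, set medians and positions among arrays, undetected values (p of 0.01 or more) below the lowest detected value of their array were raised to it; the levels printed for the 4 named probes were not raised. The steps were run on simulated data with 200 changed probes, all with a mean log2 level above 8 and detected on all 9 arrays. Each was changed by more than 2-fold, so the recovery of changes in dimmer probes or near 2-fold was not tested. The number of arrays limits precision.

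The comparison, its probe rule and the gene lists were chosen with earlier results of these data known. No probe number occurs in the reference gene table (0 matches), so the 23 gene lists, the seed-site classes and the gene-based naming rule were not used. Named probes are the 2 highest and 2 lowest by difference among those detected on both arrays. The level classes, the position of each array among the 9 and the comparisons with other arrays were chosen after seeing the data. Alternatives are given in the closing section.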

Additional observations from a re-analysis of the deposited data

How the results depend on the processing

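With 1 array per group, no alternative carries a test. Counts of probes higher in miR-181a than in the control were 45 in the report, 11 without background correction, 19 with an offset of 50, 105 in the authors' processed values, 68 without a detection filter and 541 at 1.5-fold. Counts of lower probes were 84, and 27, 43, 198 (median of the 8 other arrays as reference) and 629 in the settings without background correction, with an offset of 50, with that reference and at 1.5-fold. These settings compared 15871 probes, but 47317 without a detection filter. The reference of 8 arrays compared 15622, under a rule that counted detection on the 8 other arrays in place of the control alone. With that reference 46 probes were higher, 18.9% of the calls. Of the 45 higher and 84 lower probes, 45 and 84 kept their sign in all 5 other scalings, and 11 and 27 stayed past 2-fold in all of them. The 5 scalings rework the signals of the same arrays, so a kept sign is no replication. With the median of 8 arrays as reference, 6 and 23 stayed past 2-fold and 8 and 7 changed sign. The difference of ILMN_1744381 turned to -0.076 with that reference.

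Scalings of the counts that use other arrays were chosen after seeing the data. Probes 1.5-fold below all 8 arrays numbered 29, with 10 without background correction and 13 with an offset of 50. Those above numbered 4, with 1 in both settings and 9 in the processed values. Probes higher than in miR-32 numbered 9, with 1, 3, 3 (median scaling) and 46 (processed values), and lower ones 81, with 152 under median scaling. Probes higher than in miR-455 numbered 4, with 0 without background correction, 2 with an offset of 50 and 12 in the processed values. The total from the control was below those from miR-32 and miR-455 without background correction and with an offset of 50, below miR-32 alone under median scaling, and above both otherwise. The cause of these shifts was not tested, including the part of the offset and of background left in the signals. The other 22 recomputed counts stayed within 1.5 times the reported ones.

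No paired analysis was possible because no group holds more than 1 array. Alternatives for the gene lists, for genes with seed sites and for the probe chosen per gene were left out, since no source used here names the probes' genes. Signal over background limits the dim probes: lower bounds replace values under the detection threshold.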
